A study of Mus musculus with 8 samples.

Results

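The insulin-like growth factor (IGF) system was followed through 10 genes, of 27962 gene names on the array, in the ipsilateral (right) hemisphere of mice after sham operation or permanent middle cerebral artery occlusion (PMCAO). All probes carrying the name of 1 of these genes were taken, which gave 17 probes among the 41174 probes of the Agilent two-color mouse array, 16 of them with a value on all 8 arrays. They comprise the ligands *Igf1* (3 probes) and *Igf2* (2 probes), the receptors *Igf1r* (2 probes) and *Igf2r* (1 probe) and the binding proteins *Igfbp2* (1 probe), *Igfbp3*, *Igfbp4* and *Igfbp5* (2 probes each), *Igfbp6* and *Igfbp7* (1 probe each).

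Male C57BL/6J mice, labeled as 8 to 12 weeks old, were subjected to PMCAO with an intraluminal filament, or to a sham operation in which the external carotid artery was exposed and the wound closed. All of them then received an intracerebroventricular injection of 1 µl, either saline or saline with 1 pmol PACAP38, the longer form of pituitary adenylate cyclase-activating polypeptide, and were sampled 6 or 24 h later. Each of the 8 pools held RNA of 3 mice, 300 ng from each, and PMCAO mice had been chosen by their neurological grade. The hemisphere was taken without olfactory bulb and cerebellum, and after PMCAO it held infarct core, penumbra and tissue outside both. PACAP38 and saline pools of the same surgery and time were hybridized together on 2 arrays with the dyes exchanged, and these 2 arrays were taken as 1 replicate. There were thus 4 comparisons of PACAP38 over saline and 4 of PMCAO over sham, each with 1 replicate and no test within it.

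IGF-1 and IGF-2 are secreted peptides that act mainly through the tyrosine kinase receptor encoded by *Igf1r*, which signals to PI3-kinase and Akt and favours survival and growth of cells. The receptor encoded by *Igf2r* takes up and degrades IGF-2, and the binding proteins hold the ligands in the extracellular fluid and either limit or prolong their action. In the adult brain *Igf2* and *Igfbp2* are known from the choroid plexus and meninges, *Igfbp7* from vessels, and *Igf1* from microglia in injured tissue.

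The probes are 60-mers, and probes of the same gene read different stretches of it. Whether this accounts for differences between probes of a gene was not tested. The first 30 bases of the 8 probes of *Igf1*, *Igfbp3*, *Igfbp4* and *Igfbp7* are shown in the 5′ to 3′ direction, all in lower case since no part is singled out.
Igf1 A_51_P147942: cgcaggatcctttgctgcttgagcaacctg
Igf1 A_52_P306327: taaaatagttgagtaaaatttgccactgat
Igf1 A_52_P536434: tggatgagtgttgcttccggagctgtgatc
Igfbp3 A_51_P228472: tctataagaagaaacgatgccgcccttcca
Igfbp3 A_52_P253179: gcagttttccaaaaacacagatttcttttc
Igfbp4 A_51_P398971: atgatcacaggtgcctgcagaagcatatgg
Igfbp4 A_52_P257502: gagaagagaaacctcattcttggagtgaga
Igfbp7 A_51_P472292: taacccactaacactttattacagccagct

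Coordinates are those of the array files, for which no genome build is given in the sources used here. The *Igf1* probes lie on chromosome 10, A_52_P306327 at chr10:87420848-87420907, A_52_P536434 at chr10:87471884-87471943 and A_51_P147942 at chr10:87488982-87489041. A_52_P306327 is thus 51.0 kb from the nearest of the other two, and the files describe its target as an unclassifiable cDNA, whereas A_52_P536434 is assigned to a transcript variant of *Igf1*. The *Igfbp3* probe A_51_P228472 spans chr11:7160474-7161483, which is 1010 bases of genome for 60 bases of probe, so its match is split, and A_52_P253179 lies at chr11:7158599-7158658. The study's RT-PCR primers for *Igf1*, designed on the same cDNA as A_52_P306327, are also shown, since they belong to that cDNA record.
Forward: tggttcaaactaaccattgcag
Reverse: ggagcttccccttcagtatttt
Neither primer was found within any of the 17 probes on either strand.

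One array stood apart from the others. Among the arrays of 6 h, the one that held sham RNA with the PACAP38 pool labeled by Cy3 had 10.7% of its spots marked as outliers, against 0.323% to 3.09% elsewhere. Its channels correlated with those of the other 3 arrays of 6 h at r of 0.897 to 0.931 across probes, whereas the channels of those 3 arrays correlated at 0.974 to 0.992. The 95th percentile of its log2 levels was 3.03 and 3.05 in the 2 channels, against 2.08 to 2.13 on the other arrays of 6 h. A level here is the log2 processed signal minus the 75th percentile of its channel, and it was compared only within a probe. At 6 h, PMCAO over sham was therefore read in each dye apart, since that array enters only the Cy5 value of the saline pools and the Cy3 value of the PACAP38 pools. The arrays of 6 h and 24 h lay on different slides, so time and slide cannot be told apart. In these whole hemisphere samples, fewer cells of a type and less RNA per cell cannot be told apart either. No array held RNA of both surgeries, so every value of PMCAO over sham, also at 24 h, was taken between arrays. Its Cy3 and Cy5 values come from different arrays. A shift common to both arrays of a surgery would still enter the value as if it were a difference between surgeries.

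At 24 h the differences past 1.5-fold or 0.75-fold in both dyes were among binding proteins. In the saline-injected mice, *Igfbp3*, *Igfbp4* and *Igfbp7* were higher after PMCAO than after sham operation. *Igfbp3* was lower in PMCAO mice given PACAP38 than in those given saline. In the mice given PACAP38, *Igfbp3* A_52_P253179 was also higher after PMCAO than after sham operation. No ligand or receptor probe passed the thresholds for PMCAO over sham at 24 h.

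For *Igfbp3*, which encodes the main carrier of IGFs in serum, probe A_52_P253179 was well above background in all 8 pools. At 24 h its level, as Cy3 and Cy5 values, was -1.99 and -2.05 in the sham saline pool and -1.94 and -1.97 in the sham PACAP38 pool. It was 0.41 and 0.32 in the PMCAO saline pool and -0.83 and -0.91 in the PMCAO PACAP38 pool. The sham pools thus lay close together, with the PACAP38 pool slightly higher. The PMCAO PACAP38 pool was above both and the PMCAO saline pool was highest, with gaps larger than the difference between dyes. PMCAO over sham was 2.40 and 2.37 on the log2 scale in the saline pools, a mean of 5.22-fold, and 1.11 and 1.06 in the PACAP38 pools, a mean of 2.12-fold. PACAP38 over saline in PMCAO mice was -1.32 on one array and -1.13 on the other, a mean of 0.428-fold, while in sham mice it was 0.00 and 0.12. At each time, PMCAO over sham in saline pools and PACAP38 over saline in PMCAO mice share the PMCAO saline pool. For every gene, a value particular to that pool thus moves them in opposite directions. For this probe that pool was the highest of the 4. At 6 h the levels of this probe lay between -1.51 and -0.37 in the 8 channels, and no mean passed a threshold.

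The split-match probe A_51_P228472 of *Igfbp3* was much dimmer. It was not well above background in the sham saline pool at 24 h on either array and well above it on both arrays of the PMCAO saline pool. Only a bound can be given for PMCAO over sham there, and it was at least 1.21-fold after normexp, loess and Aquantile, against the sham pool's own signal, which on both arrays exceeded the detection floor, the dimmest signal of any well-detected probe. PACAP38 over saline in PMCAO mice at 24 h was -1.05 and -1.15, a mean of 0.467-fold, with the PACAP38 pool well above background on 1 of 2 arrays. That value shrank to -0.25 after normexp background correction and loess, whereas the value of A_52_P253179 was -1.18 under the same setting.

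For *Igfbp4*, whose product mostly blocks IGF action, both probes were higher after PMCAO in the saline pools at 24 h. A_51_P398971 was higher by 1.12 in Cy3 and 1.11 in Cy5, a mean of 2.17-fold, and A_52_P257502 by 0.82 and 1.22, a mean of 2.02-fold. In the PACAP38 pools the same probes were at 0.46 and 1.06 and at 0.46 and 0.60. For both probes, each PMCAO pool of 24 h had a higher mean level than both sham pools. For PACAP38 over saline at 24 h the 2 dye orientations gave different values for this gene. In sham mice it was -0.93 with PACAP38 in Cy5 and 0.81 with PACAP38 in Cy3 for A_51_P398971, and -0.70 and 0.77 for A_52_P257502. In PMCAO mice the corresponding values were -0.97 and 0.17, and -0.90 and 0.02. The Cy3 level of both probes was above the Cy5 level in all 4 pools of 24 h. Compared within a dye, across the 2 arrays, PACAP38 minus saline in PMCAO mice was -0.42 in Cy3 and -0.41 in Cy5 for A_51_P398971, and -0.44 and -0.46 for A_52_P257502, so both dyes lay on the same side of 0. In sham mice the same differences were 0.24 and -0.36, and -0.08 and 0.15, on opposite sides of 0 for each probe.

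*Igfbp7* encodes a secreted protein of low affinity for IGFs that vessels deposit in their matrix. At 24 h its levels were 3.29 and 3.41 in the sham saline pool, 3.36 and 3.57 in the sham PACAP38 pool, 4.30 and 4.38 in the PMCAO saline pool and 3.92 and 3.89 in the PMCAO PACAP38 pool. The order of the pools was that of *Igfbp3* probe A_52_P253179, with the sham pools not apart beyond the dye difference. PMCAO over sham was 1.01 and 0.97 in the saline pools, a mean of 1.98-fold, and 0.55 and 0.32 in the PACAP38 pools, a mean of 1.35-fold. PACAP38 over saline in PMCAO mice was -0.40 and -0.44, a mean of 0.748-fold, just past the threshold. Its spot was an outlier on 1 array of each comparison of 6 h, so no mean was available at that time.

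**Figure D1:**
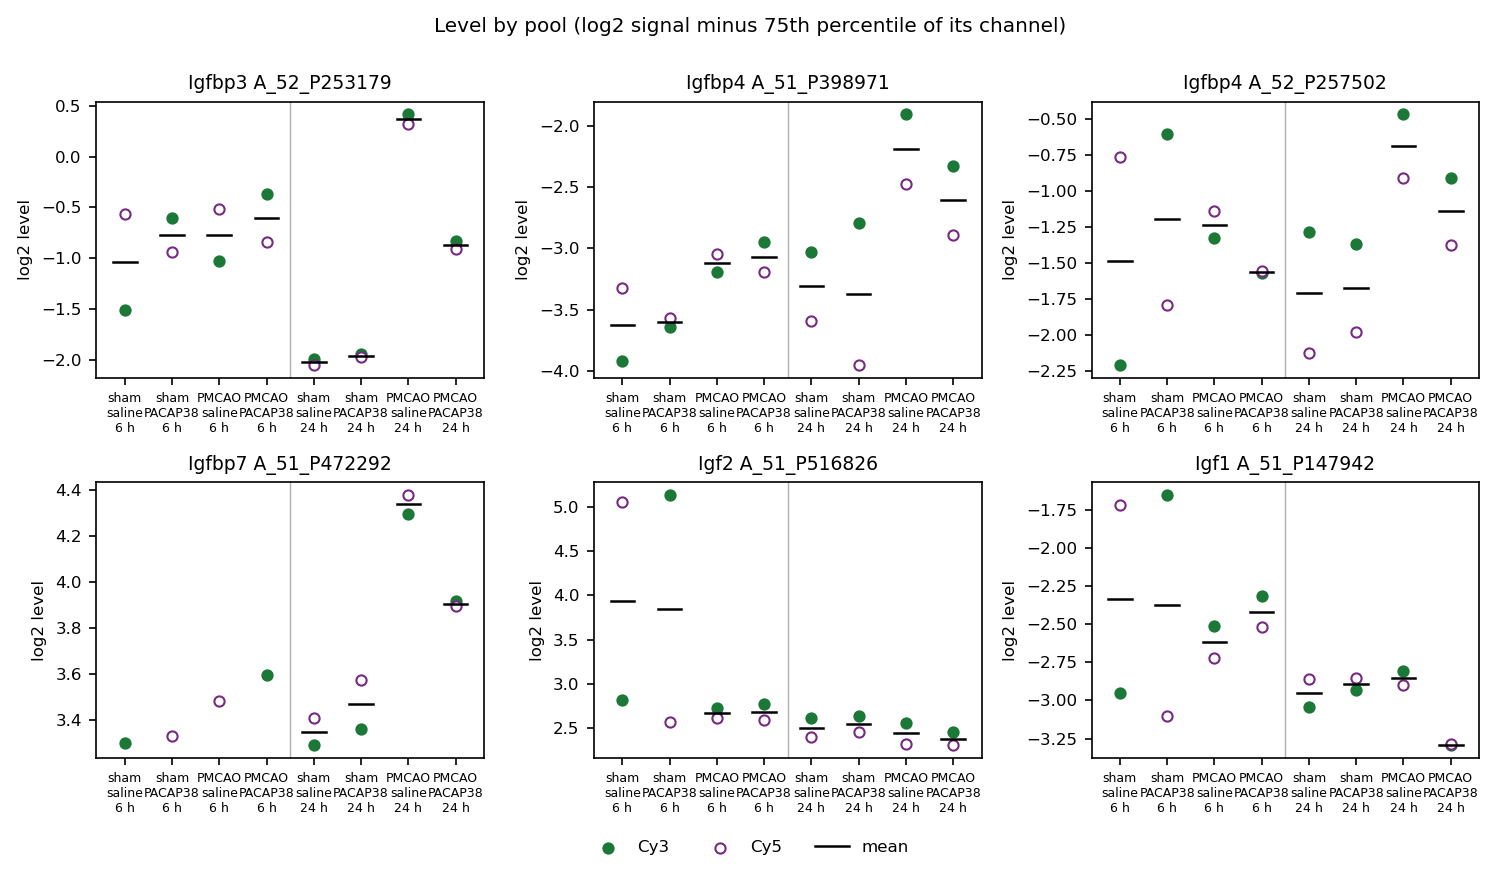
Log2 level (processed signal minus the 75th percentile of its channel) of 6 probes in the 8 pools, with the Cy3 value filled, the Cy5 value open and their mean as a bar; the axes start at different values, and levels are comparable within a panel only. At 24 h *Igfbp3* A_52_P253179 stood at 0.41 and 0.32 in the PMCAO saline pool and between -2.05 and -1.94 in both sham pools, and at 6 h *Igf2* A_51_P516826 was at 5.05 and 5.14 in one channel of each sham pool and 2.56 to 2.82 in the other.

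Across the system, a probe was counted when the mean of the 2 arrays lay above 1.5-fold or below 0.75-fold, the thresholds of the study. In PMCAO over sham at 24 h in the saline pools, 5 of 17 probes were above 1.5-fold, against 9.56% of all probes measured, and 0 were below 0.75-fold, against 13.3%. These 5 were both probes of *Igfbp3*, both of *Igfbp4* and that of *Igfbp7*. *Igfbp3* A_51_P228472 was counted by its mean of processed signals, although only a bound of at least 1.21-fold could be given. That bound does not reach 1.5-fold, but it comes from normexp, loess and Aquantile values, a different scale from that of the count. In the PACAP38 pools of 24 h, 3 of 17 were above 1.5-fold, against 6.39%, and 0 below 0.75-fold, against 8.19%. Those 3 were both *Igfbp3* probes and *Igfbp4* A_51_P398971, and *Igfbp3* A_51_P228472 among them had dye values of 1.55 and -0.04. The median of the members was 0.20 in the saline pools and -0.03 in the PACAP38 pools, against 0.02 and 0.03 over all probes.

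PACAP38 over saline in PMCAO mice at 24 h put 6 of 17 probes below 0.75-fold, against 8.18% of all probes, and 0 above 1.5-fold, against 2.99%. Besides both *Igfbp3* probes, *Igfbp7* and *Igfbp4* A_52_P257502, these were *Igfbp5* A_51_P204153, with array values of -0.25 and -1.03, and *Igf1* A_51_P147942, with -0.47 and -0.38. The means of *Igf1*, *Igfbp4* and *Igfbp7* were close to the threshold. Of the 6 probes only those of *Igfbp3* were past it on both arrays. Compared within a dye, *Igfbp5* A_51_P204153 was at -0.63 in Cy3 and -0.69 in Cy5. The median of the members was -0.24, against 0.00 over all probes. In sham mice at 24 h, 0 of 17 probes were above 1.5-fold, against 1.75%, and 0 below 0.75-fold, against 3.87%.

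**Figure D2:**
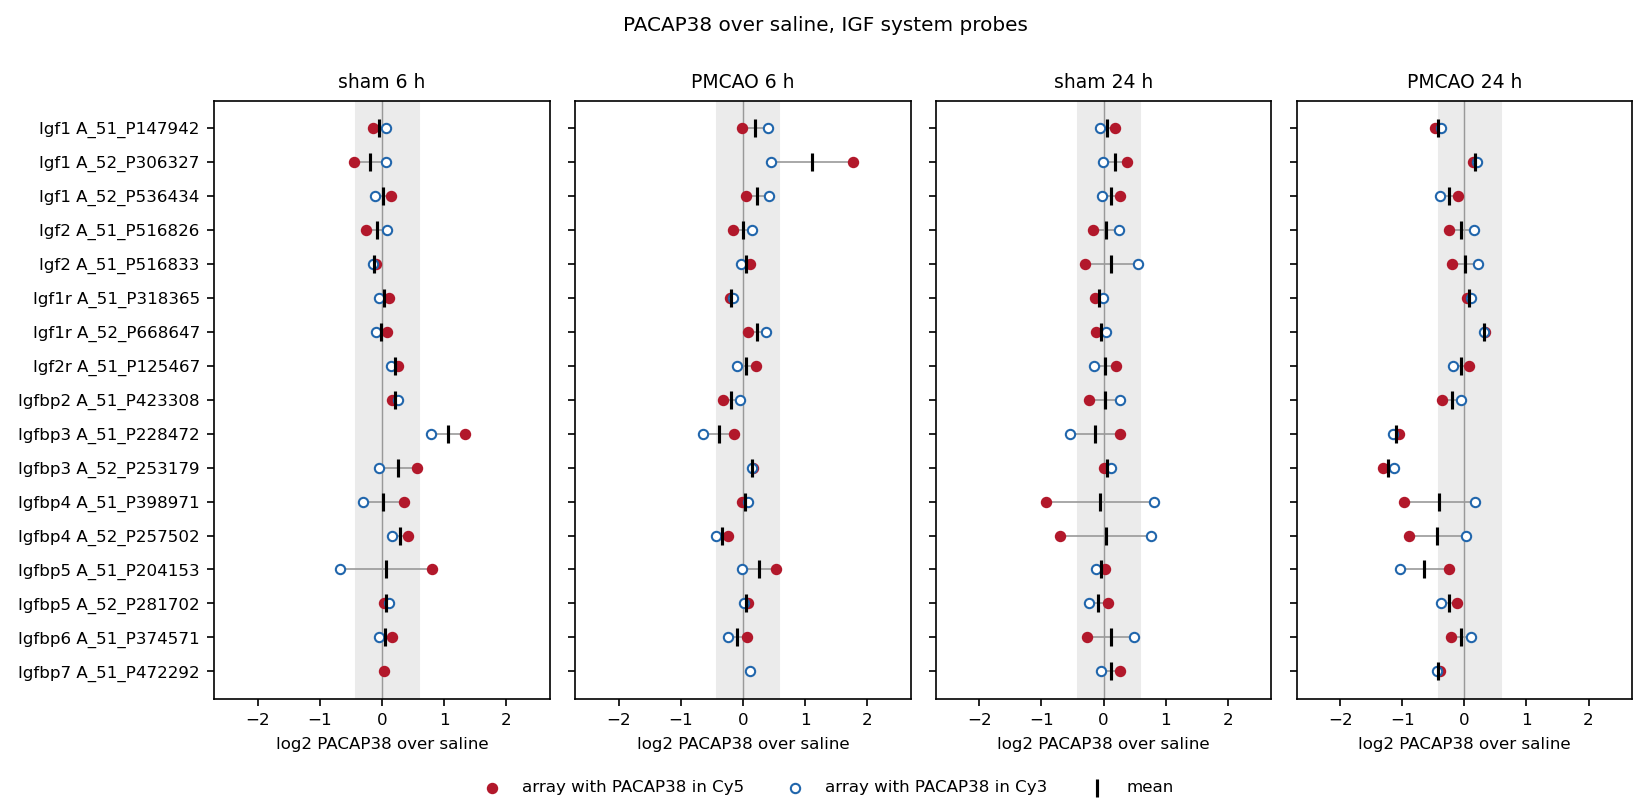
Log2 PACAP38 over saline of the 17 probes in the 4 comparisons, with the array with PACAP38 in Cy5 filled, the array with PACAP38 in Cy3 open and the mean of both as a tick; the grey band runs from 0.75-fold to 1.5-fold. Both *Igfbp3* probes lay between -1.05 and -1.32 in PMCAO mice at 24 h, and both *Igfbp4* probes fell on opposite sides of 0 in sham mice at 24 h.

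The 3 probes of *Igf1* did not move together. A_51_P147942, spotted 10 times on each array, had PACAP38 over saline of -0.02 and 0.40 at 6 h and -0.47 and -0.38 at 24 h in PMCAO mice. A_52_P536434 had 0.04 and 0.42 at 6 h and -0.11 and -0.39 at 24 h. Both were thus higher or level with PACAP38 at 6 h and lower at 24 h, with means of 0.19 and 0.23 at 6 h and of -0.43 and -0.25 at 24 h. A_52_P306327 gave 1.77 and 0.45 at 6 h, a mean of 2.15-fold, and 0.13 and 0.21 at 24 h. This dim probe was thus past 1.5-fold on 1 array of 6 h and on neither array of 24 h. At 6 h it was well above background on 1 of 2 arrays of the PMCAO saline pool, and after normexp correction and loess its mean was 0.08. It was also the *Igf1* probe lower after PMCAO in the saline pools at 6 h, by -1.45 in Cy3 and -0.91 in Cy5, with each pool well above background on 1 of 2 arrays. A_51_P147942 and A_52_P536434 had PMCAO over sham of 0.10 and 0.05 in the saline pools at 24 h and of -0.40 and -0.33 in the PACAP38 pools.

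For *Igf2*, both probes stayed within the thresholds at 24 h. A_51_P516826, also spotted 10 times, had levels between 2.30 and 2.64 in the 8 channels of that time, and PMCAO over sham of -0.07 in the saline pools and -0.17 in the PACAP38 pools. PACAP38 over saline averaged between -0.09 and 0.04 in the 4 comparisons for this probe and between -0.12 and 0.13 for A_51_P516833. At 6 h the mean PMCAO over sham was -1.27 and -1.23 for the 2 probes in saline pools and -1.17 and -1.05 in PACAP38 pools. These values came from the comparison with the array that stood apart. In the saline pools A_51_P516826 was at -0.09 in Cy3 and at -2.44 in Cy5, the dye of saline on that array, and in the PACAP38 pools it was at -2.37 in Cy3 and 0.02 in Cy5. Without that array both probes lay between -0.09 and 0.15. At 6 h the choroid plexus markers had 6 of 11 probes below 0.75-fold in the saline pools, against 34.9% of all probes, with a median of -1.15. In the PACAP38 pools 6 of 11 were below, against 30.6%, with a median of -0.76. In both dyes 5 were below in the saline pools and 0 in the PACAP38 pools. The array that stood apart also enters 1 dye of these marker values, and the part of choroid plexus in the values of *Igf2* was not tested.

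The same split between dyes was found for the receptor *Igf2r*, at -0.16 and -1.81 in the saline pools and -2.05 and -0.21 in the PACAP38 pools at 6 h, and at 0.03 and -0.06 as means of 24 h. *Igf1r* did not pass the threshold with either probe in any of the 8 comparisons. Its probe A_52_P668647 was highest at 0.53 (mean) for PMCAO over sham in the PACAP38 pools at 6 h, with 0.55 in Cy3 and 0.50 in Cy5, and its probe A_51_P318365 ranged from -0.19 to 0.16.

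At 6 h, PMCAO over sham put 2 of 16 probes above 1.5-fold in the saline pools, against 19.5%, and 5 below 0.75-fold, against 34.9%. In the PACAP38 pools 0 were above, against 17%, and 4 below, against 30.6%. The share of members past the threshold was thus no higher than that of all probes in either direction. From the arrays with PACAP38 in Cy5 alone, 5 probes were above and 1 below in the saline pools, against 17.2% and 16.9%, and 1 above and 0 below in the PACAP38 pools, against 17.9% and 10.2%. *Igfbp2*, which encodes the most abundant binding protein of cerebrospinal fluid, was the clearest of those above. It was higher by 1.06 in Cy3 and 0.71 in Cy5 in the saline pools, a mean of 1.85-fold, and by 0.41 and 0.58 in the PACAP38 pools. At 24 h it was at 0.13 and 0.27 and at -0.06 and -0.02. *Igfbp3* A_51_P228472, counted above 1.5-fold by its mean in the saline pools, was not well above background in the sham saline pool at 6 h. The bound there was at least 1.13-fold, with the PMCAO pool measured on 1 of 2 arrays. Probe A_52_P253179 of the same gene had 0.49 and 0.05 in the saline pools. The 6 h value of *Igfbp5* A_52_P281702 came from the array that stood apart, at -0.24 and -1.21 in the saline pools and -1.30 and -0.17 in the PACAP38 pools.

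**Figure D3:**
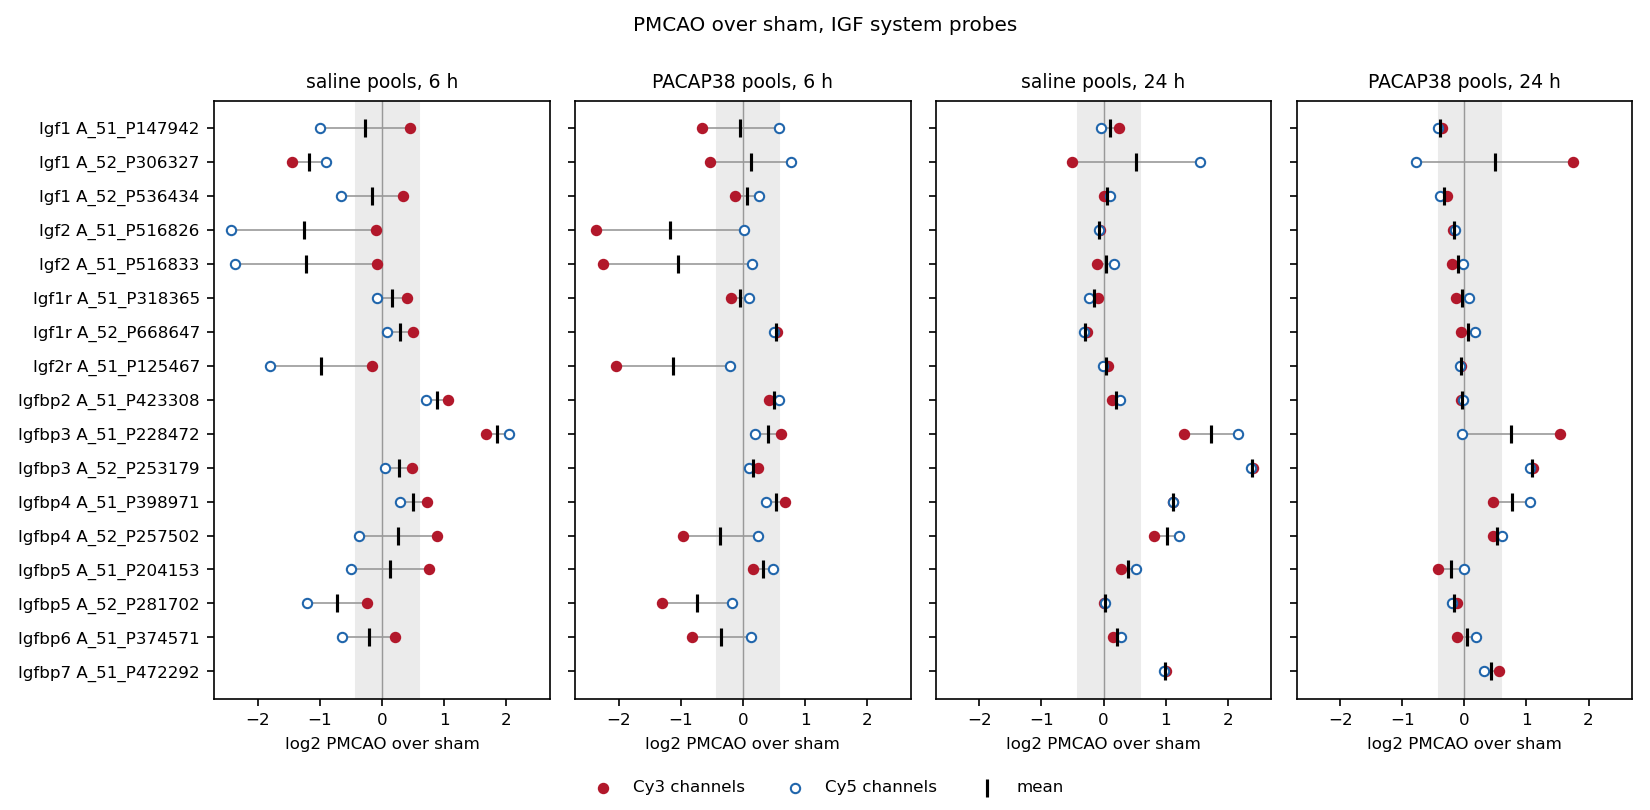
Log2 PMCAO over sham of the 17 probes within saline or PACAP38 pools of one time, with the Cy3 channels filled, the Cy5 channels open and their mean as a tick; the grey band runs from 0.75-fold to 1.5-fold. At 24 h the dyes lay far apart for *Igf1* A_52_P306327, at -0.50 and 1.55 in the saline pools, and close for *Igfbp3* A_52_P253179, at 2.40 and 2.37, and at 6 h *Igf2* and *Igf2r* were near 0 in one dye and between -1.81 and -2.44 in the other.

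PACAP38 over saline at 6 h put 1 of 16 probes above 1.5-fold in sham mice, against 3.98%, and 0 below 0.75-fold, against 7.48%. In PMCAO mice 1 of 16 was above, against 5.41%, and 0 below, against 6.9%. The probe in PMCAO mice was *Igf1* A_52_P306327. The probe in sham mice was *Igfbp3* A_51_P228472, at 1.34 and 0.79, for which the saline pool was not well above background on either array and no bound was obtained. After normexp correction and loess its mean was -0.01. Of the remaining binding proteins, *Igfbp6* had means between -0.09 and 0.11 for PACAP38 over saline in all 4 comparisons, and *Igfbp5* A_52_P281702 between -0.24 and 0.06.

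Tests across pools were of 2 kinds, each with all probes measured on the 8 arrays and Benjamini-Hochberg adjustment. For PACAP38 over saline in the 4 comparisons (limma), 0 of 16 member probes and 0% of 36121 probes had an adjusted p under 0.05. That test measures a change common to sham and PMCAO mice and to both times. A change confined to a single surgery and time was therefore not tested. Without adjustment 0 of the 16 members were under 0.05, and the smallest adjusted p of a member was 0.871. For PMCAO over sham in the 8 pools, with surgery, time and treatment as terms and the array pair as a random block (limma), 0 of 16 members and 0% of all probes passed. This fit measures a change common to both times and both treatments. Without adjustment 2 members were under 0.05. *Igfbp4* A_51_P398971 was 0.73 ± 0.24 (SE) higher with an adjusted p of 0.353 in limma, and *Igf2* A_51_P516826 was -0.67 ± 0.27 (SE) with an adjusted p of 0.360. Without the arrays of 6 h with PACAP38 in Cy3, the value of *Igf2* was -0.08 with an adjusted p of 0.763, and that of *Igfbp4* A_51_P398971 was 0.74 with 0.144. *Igfbp3* A_52_P253179 was 0.98 ± 0.54 (SE) higher, with an adjusted p of 0.429. *Igfbp7* was tested only with outlier spots kept, since 2 of its 8 spots were otherwise dropped, and was then 0.43 for PMCAO over sham with an adjusted p of 0.551 in limma, and 0.08 for PACAP38 over saline with 0.959. The lack of a call does not show that levels were equal.

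Among the other genes of the pathway, several that act on the binding proteins were past the thresholds at 24 h. The list of proteases that cleave binding proteins and of their inhibitors held 7 probes of 5 genes. In PMCAO over sham at 24 h, 5 of 7 were above 1.5-fold and 0 below 0.75-fold in the saline pools, against 9.56% and 13.3% of all probes, with a median of 1.04. In the PACAP38 pools 2 were above and 0 below, against 6.39% and 8.19%, with a median of 0.46. *Pappa*, a protease of IGFBP-4, was higher by 1.09 and 0.98 in the saline pools with probe A_51_P340027, a mean of 2.05-fold, and by 0.36 and 0.43 in the PACAP38 pools. *Stc2*, an inhibitor of that protease, was higher in both dyes, with means of 1.92-fold in the saline pools and 1.93-fold in the PACAP38 pools. *Stc1*, another such inhibitor, was higher by 2.23 and 1.87 with probe A_52_P315733, although only 1 of 2 arrays showed the sham pool well above background. Its probe A_51_P233334 was at least 1.54-fold higher and was not well above background in the sham saline pool. PACAP38 over saline in PMCAO mice at 24 h put 4 of these 7 probes below 0.75-fold and 0 above 1.5-fold, against 8.18% and 2.99%, with a median of -0.59. *Stc1* A_52_P315733 was at -1.58 and -1.19, a mean of 0.382-fold, and *Pappa* A_51_P340027 at -0.60 and -0.95. These values share the PMCAO saline pool with those of PMCAO over sham in the saline pools. In sham mice 0 of 7 passed in either direction, with a median of 0.00. Probe A_52_P107406 of *Pappa*, counted in each of these 3 PMCAO comparisons, was not well above background in any pool compared. At 6 h, where the array that stood apart enters 1 dye of each value, 3 of 6 probes of the list were above 1.5-fold after PMCAO in the saline pools, against 19.5%, and 4 of 6 in the PACAP38 pools, against 17%.

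Among the other ligands and binding proteins, with 7 probes of 5 genes, *Igfbp1* was higher after PMCAO at 24 h by 2.16 and 2.33 in the saline pools, a mean of 4.75-fold, and by 2.89 and 2.36 in the PACAP38 pools, a mean of 6.17-fold. *Igfbp1* encodes a binding protein mainly made by liver. PACAP38 over saline for it in PMCAO mice was 0.45 and 0.05, whereas *Igfbp3* A_52_P253179 was at -1.32 and -1.13. In all, 3 of 7 probes of this list were above 1.5-fold and 1 below 0.75-fold in the saline pools at 24 h, against 9.56% and 13.3% of all probes. In the PACAP38 pools 2 were above and 0 below, against 6.39% and 8.19%. The probes past a threshold besides *Igfbp1* were dim or different between dyes.

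The RNA-binding proteins of *Igf2* mRNA and the transcript *H19*, which neighbours *Igf2*, had 4 of 9 probes above and 1 below in the saline pools at 24 h, of which 1 was well above background in both pools. Of all probes, 9.56% were above and 13.3% below in that comparison. *Igf2bp3* A_51_P302336 was at least 1.15-fold higher, with the PMCAO pool well above background on 1 of 2 arrays. *Igf2bp2* was higher by 1.12 and 1.15, a mean of 2.19-fold, and was at -0.62 and -0.53 for PACAP38 over saline in PMCAO mice.

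The signaling genes downstream of the receptors mostly stayed within the thresholds at 24 h, where 9.56% of all probes were above and 13.3% below in the saline pools. Of 27 probes from PI3-kinase to Akt, Foxo and mTOR, 1 was above and 1 below in the saline pools, with a median of -0.12. With PACAP38 over saline in PMCAO mice 1 was above and 0 below, against 2.99% and 8.18% of all probes, with a median of 0.04. The probe above in the saline pools was A_52_P67643 of mTOR, named *Frap1* in the files, at 1.84 and 1.74, whereas probe A_51_P282179, matched to *Mtor*, was at -0.14 and -0.19, so the probes of this gene disagreed. Of 13 probes of insulin receptors and receptor substrates, 2 were above and 1 below in the saline pools at 24 h, with a median of 0.02. Of these the adaptor *Shc1* was higher in both dyes, by 0.87 and 0.74 with probe A_52_P384250. Of 10 probes of the growth hormone axis, which drives *Igf1* in liver, 0 were above and 2 below in the saline pools at 24 h, near the shares of all probes, with a median of -0.08. In both tests across pools, 0 probes of these 6 lists passed adjustment in limma, and without adjustment between 0 and 3 probes of a list were under 0.05 in each direction.

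Markers of other cells were read in the same pools of 24 h. Of all probes, 9.56% were above 1.5-fold and 13.3% below 0.75-fold for PMCAO over sham in the saline pools. For PACAP38 over saline in PMCAO mice these shares were 2.99% and 8.18%, and several of the counts below lie near them. Both comparisons share the PMCAO saline pool, so a value particular to that pool moves them in opposite directions. All 7 probes of neutrophil genes were above 1.5-fold for PMCAO over sham in the saline pools, with a median of 3.31. All 7 were below 0.75-fold for PACAP38 over saline in PMCAO mice, with a median of -2.91. Well above background on both arrays were 3 of 7 in the sham saline pool and 3 in the PMCAO PACAP38 pool. In the PMCAO saline pool there were 6, so both medians include dim values. In sham mice at 24 h, PACAP38 over saline put 4 of 7 below and 2 above, against 3.87% and 1.75% of all probes, with a median of -0.54. The summed level of these probes, as linear signal over the 75th percentile, was 50.2 in the PMCAO saline pool, 5.95 in the PMCAO PACAP38 pool and 0.774 and 1.14 in the sham pools of 24 h. *S100a8*, an abundant calcium-binding protein of neutrophils, was at 6.29 and 6.16 for PMCAO over sham in the saline pools, whereas *Camp*, a peptide of neutrophil granules, was not well above background in the sham saline pool or either PMCAO pool. Of 13 endothelial probes, 6 were above and 3 below in the saline pools, with a median of 0.39, and 6 were below and 1 above for PACAP38 over saline, with a median of -0.34. *Cdh5*, the cadherin of endothelial junctions, was at 1.59 and 1.46 and then at -1.24 and -0.89 with probe A_51_P309056, while *Slco1a4*, a transporter of brain vessels, was at -0.73 and -0.68 and then at 1.01 and 0.79. Of 13 probes of meninges and fibroblasts, 2 were above and 1 below in the saline pools, and 4 were below and 0 above for PACAP38 over saline. Of 13 probes of choroid plexus, 0 were above and 1 below in the saline pools, with a median of 0.08. For PACAP38 over saline 0 of these were above and 2 below, with a median of -0.09. Of 15 probes of pericytes and smooth muscle, 4 were above and 1 below in the saline pools, and 3 were below and 0 above for PACAP38 over saline, and of 12 probes of microglia and macrophages, 1 was above and 5 below, and 2 were below and 0 above. The astrocyte list, with 14 probes, had 4 above and 0 below in the saline pools, and 0 above and 1 below for PACAP38 over saline. The neuron list, with 16 probes, had 0 above and 1 below and a median of -0.26 in the saline pools. For PACAP38 over saline it had 1 above and 0 below, with a median of 0.10. The part of these cells in the values of *Igfbp3*, *Igfbp4* and *Igfbp7* was not tested.

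**Figure D4:**
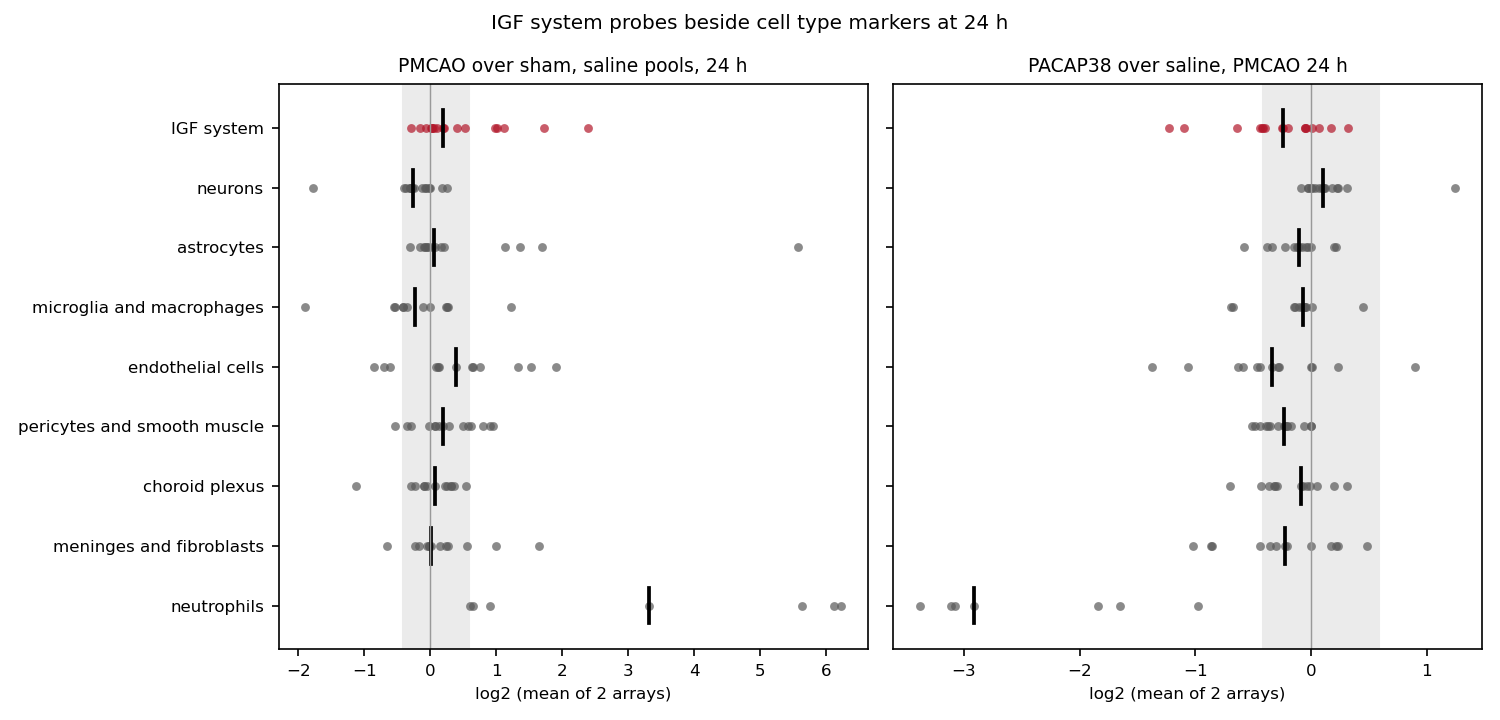
Log2 PMCAO over sham in saline pools (left) and log2 PACAP38 over saline in PMCAO mice (right) at 24 h, with 1 point per probe (mean of 2 arrays) for the IGF system and 8 lists of cell type markers, and the median as a bar; the grey band runs from 0.75-fold to 1.5-fold. The neutrophil probes had medians of 3.31 and -2.91, and the IGF system 0.20 and -0.24. Both panels share the PMCAO saline pool. Of the neutrophil probes, 3 of 7 were well above background on both arrays in the sham saline pool, and 3 of 7 in the PMCAO PACAP38 pool.

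The probes most like the *Igf1* and *Igf2* probes, by Pearson's r of the 8 pool levels after the mean of each time was subtracted, depended on the array that stood apart. For *Igf2* A_51_P516826 they were *St3gal6* and *Man2a1*, both with r of 0.999, and for *Igf1* A_51_P147942 *1700012B09Rik* with r of 0.975 and *Prelp* with 0.972. When the pools of 6 h were taken from the arrays with PACAP38 in Cy5 alone, 0 of the 5 most alike probes were the same for any of the 5 probes of these ligands, and *Igf1* A_51_P147942 was most like *Socs2*, with r of 0.992. These correlations describe 8 pools that share arrays in pairs.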

How the data were processed

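Arrays were scanned and processed by the authors with Feature Extraction (9.5.3.1 in the submitters' processing notes, 9.5.1.1 in the headers of the 6 h files). The deposited log10 ratio is Cy5 over Cy3 as computed by the software, which removed background and balanced the dyes. Per the file headers, intensity columns give the mean, the background and the processed signal of a spot. The deposited table of ratios carries the processed Cy5 over Cy3 ratio, and on arrays with PACAP38 in Cy3 its deposited values are scores, that ratio with a minus sign; it served as an alternative. PACAP38 over saline was log2 of the ratio, sign-turned where PACAP38 was in Cy3. PMCAO over sham was the difference of log2 levels in the same dye, averaged over dyes. Spots flagged as outliers were dropped in both channels, and spots of a probe averaged. A probe with no value on 1 array had no mean. A pool not well above background on either of its arrays was given a bound only, from normexp (offset 50), loess and Aquantile values, taken per array against its own signal or, where larger, the dimmest signal of any probe that was well detected there. The number of arrays limits the precision.

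In the labels the 2 arrays of a comparison carry pool numbers 1 and 2, but by the methods one RNA pool was labeled in both orientations, so they were averaged as 1 replicate. Tests used limma 3.58.1 (R 4.3.3) on pools, with p-values that rest on 8 pools of 4 array pairs. Both fits were tested on simulated data, where the fit with the array pair as a block called more unchanged probes than its threshold allows, so its p-values may be too small. The members, gene lists, markers and tests were chosen with earlier results of these data known. Genes named are the members, and from the lists those past the threshold on both arrays, at most 5 a comparison by size; *Igf2bp2*, *Stc2*, *Shc1*, *Slco1a4* and *Camp* were named after their values were seen. Symbols are those of the files, 13 of the 17 member probes being matched to RefSeq (GRCm38.p6). Alternatives were normexp with loess, the table of ratios, outlier spots kept, a filter on background, other thresholds and scalings, and arrays or pools left out. Leaving out the array of 6 h that stood apart was chosen after seeing the data.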

Additional observations from a re-analysis of the deposited data

Results flagged for a closer look

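Differences were flagged where both arrays of one comparison moved one way and both arrays of another moved the opposite way, and none of these differences was tested, since each comparison is 1 replicate. For *Igfbp3* A_52_P253179, PACAP38 over saline at 24 h was 0.06 in sham mice and -1.22 in PMCAO mice, a gap of 1.28 on the log2 scale, in which the sham value lay near 0 on both arrays. For the same probe, PACAP38 over saline in PMCAO mice was 0.15 at 6 h and -1.22 at 24 h, a gap of 1.38, with each time on its own slide. For *Igfbp3* A_51_P228472, PACAP38 over saline at 6 h was 1.06 in sham mice and -0.39 in PMCAO mice, a gap of 1.45, with the sham saline pool not well above background. For *Igfbp5* A_52_P281702, PMCAO over sham in saline pools was -0.73 at 6 h and 0.02 at 24 h, a difference of -0.74, and the 6 h value without the array that stood apart was -0.24.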

How the results depend on the processing

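No paired analysis was possible because the number that arrays of different groups share in the labels marks a dye orientation of 1 RNA pool, not shared mice, and PACAP38 and saline pools were already compared within arrays. For PMCAO over sham, 0 members passed with the array pair as a random block, without it, and with each pair averaged. Values from single arrays also hold the difference between dyes of a probe. Of the counts of member probes, 69 recomputed values stayed within 1.5 times the main count and 23 did not, and of the single values 479 stayed within the spread of the 2 arrays, 50 moved further and 5 turned sign. Where a count moved, the cause was not tested.

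For PACAP38 over saline, the count of 1 in sham mice at 6 h was 0 with normexp and loess and 0 with probes well above background only, and 2 to 3 from single arrays. The count of 1 in PMCAO mice at 6 h was 0 with normexp and loess, 0 when each array had to pass, and 1 to 2 from single arrays. The count of 0 in sham mice at 24 h was 2 to 3 from single arrays. The count of 6 in PMCAO mice at 24 h was 2 when each array had to pass, 3 at 1.5-fold either way and 4 to 5 from single arrays. For PMCAO over sham, the count of 7 in saline pools at 6 h was 4 with normexp, loess and Aquantile, 3 when each dye had to pass and 6 to 11 from single dyes. The count of 4 in PACAP38 pools at 6 h was 9 without scaling, 8 with outlier spots kept, 0 when each dye had to pass and 1 to 10 from single dyes. The count of 5 in saline pools at 24 h was 6 from either dye alone. The count of 3 in PACAP38 pools at 24 h was 1 with normexp, loess and Aquantile, 1 when each dye had to pass and 4 to 5 from single dyes. In limma, PMCAO over sham had 1 member with an adjusted p under 0.05 in saline pools alone, *Igfbp3* A_51_P228472 at 1.79 with an adjusted p of 0.0398, whose sham pools were below background, against 0 in all pools.

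The sign turned for *Igfbp3* A_51_P228472 in sham mice at 6 h (-0.0096 with normexp and loess) and, in PACAP38 pools at 24 h, from Cy5 alone (-0.037), for *Igfbp4* A_52_P257502 in PMCAO mice at 24 h without the array with PACAP38 in Cy5 (0.023, against -0.90 without the other), and for *Igf2* in PACAP38 pools at 6 h from Cy5 alone (0.024 for A_51_P516826 and 0.15 for A_51_P516833). With normexp, loess and Aquantile, PMCAO over sham of *Igfbp3* A_52_P253179 at 24 h was 1.91 in saline pools and 0.66 in PACAP38 pools, and that of *Igfbp4* A_51_P398971 in saline pools was 0.65. Signal over background limits the dim probes of *Igf1* (A_52_P306327) and *Igfbp3* (A_51_P228472).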
